A study of Drosophila melanogaster with 24 samples.

Results

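InR, chico, Lnk, Pi3K92E, Akt, foxo, Thor, ImpL2, Tsc1 and S6k, 10 genes that act after the insulin-like peptides in Drosophila, were read out of 16 lists of broad chromatin peaks. They were chosen by name, as 10 of 13945 protein-coding genes on chromosome arms 2L, 2R, 3L and 3R and chromosomes 4 and X. Each list came from 1 chromatin immunoprecipitation library, made from 25 heads of mated male flies kept at 25 °C and collected in the light phase. The lists fall into H3R17me2, the asymmetric dimethyl mark of arginine 17 on histone H3, with 8 libraries, and H3K27me3, the trimethyl mark of lysine 27, with 8 libraries. For each mark, 2 libraries came from each of 4 conditions, which are w1118 control flies and LKRSDH MB01942 mutants, both at 3 days (young) and at 40 days (old) of age. LKRSDH is the lysine ketoglutarate reductase/saccharopine dehydrogenase, described as an inhibitor of H3R17 methylation. The mutants were homozygous for 1 insertional allele that carries a GFP marker, and had been crossed back to w1118. The comparisons ask whether the genes that carry the insulin signal lie under either mark, and whether that differs with age or with loss of LKRSDH.

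In the insulin pathway, insulin-like peptides bind the receptor InR, which passes the signal through the adaptors chico and Lnk to the lipid kinase Pi3K92E and on to the kinase Akt. Akt holds the transcription factor foxo out of the nucleus and relieves the brake that Tsc1 sets on the TOR kinase, which in turn acts on S6k and on Thor, the inhibitor of translation known as 4E-BP. ImpL2 is a secreted protein that binds the peptides and dampens the signal. H3K27me3 is the mark of Polycomb repression and often lies over long domains, while arginine methylation of H3 by CARM1 is known mainly from active genes in mammals. The heads hold brain, eye, fat body and other cells, so a peak does not show in which cells a mark lies.

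The measure throughout is the covered share, the percent of the gene body plus 1000 bp upstream of its start that lies under a peak of a library. H3K27me3 covered 2 of the 10 genes almost whole. The share at foxo averaged 98.1% ± 2.01 (SD, n = 8 libraries) and that at Thor 89.8% ± 25.1. A mean H3K27me3 share of 50% or more was found at these 2 of the 10. The same held for 19.4% of all genes and 22.2% of genes outside X. ImpL2 and InR had H3K27me3 peaks in some libraries, with a mean of 5.03% ± 12.5 at ImpL2 and 1.86% ± 2.41 at InR. No H3K27me3 peak touched chico, Lnk, Pi3K92E, Akt, Tsc1 or S6k in any of the 8 libraries. Every one of the 10 genes had H3R17me2 peaks in at least 4 of 8 libraries, with means from 14.9% at Akt to 46.2% at ImpL2.

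**Figure D1:**
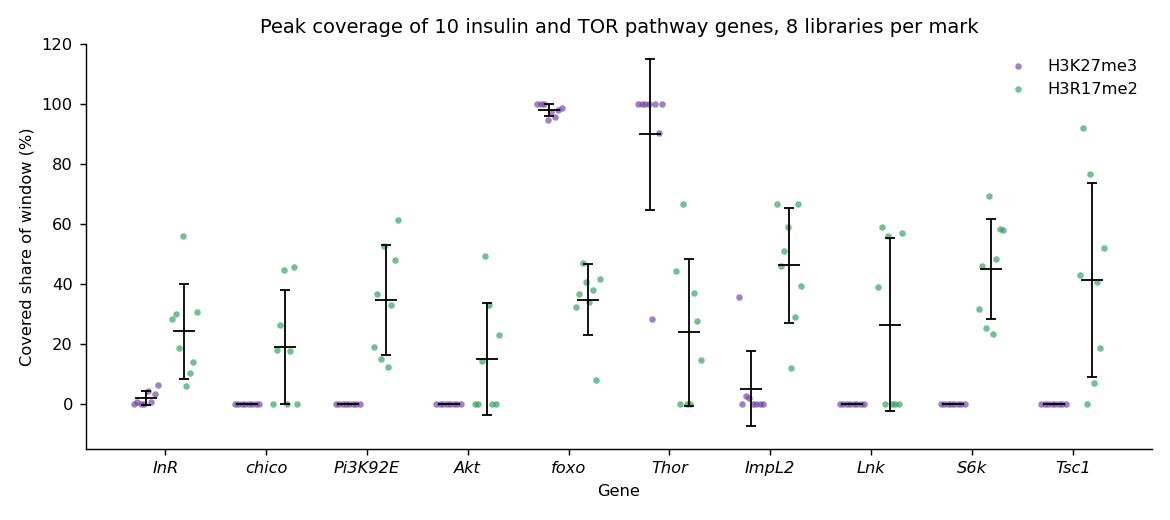
Covered share of the gene window (percent, y axis) for each of 10 genes (x axis), with 1 point per library, 8 libraries per mark, a bar at the mean and whiskers of 1 SD. The H3K27me3 points of foxo lie between 94.8% and 100%, 6 other genes have all H3K27me3 points at 0%, and the H3R17me2 points spread widely at every gene.

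The start regions of foxo, Thor and ImpL2 are printed here because the H3K27me3 domains of foxo and Thor cross theirs and small H3K27me3 peaks lie just upstream of that of ImpL2. The stretches run from 250 bases before to 50 bases after the first base of the gene, 5′ to 3′ along the gene, from the RefSeq genome of the same build. Capitals mark GAGAG (GAGA factor) and GCCAT (core bound by Pho, a DNA-binding Polycomb protein), in either direction.
foxo promoter, chr3R:14056695-14056994, plus strand: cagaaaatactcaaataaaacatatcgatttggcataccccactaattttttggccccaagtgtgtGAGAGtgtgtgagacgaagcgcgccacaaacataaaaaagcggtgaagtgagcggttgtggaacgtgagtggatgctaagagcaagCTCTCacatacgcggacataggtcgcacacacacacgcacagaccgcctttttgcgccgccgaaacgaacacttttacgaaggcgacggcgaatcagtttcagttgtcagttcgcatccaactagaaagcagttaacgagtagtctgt
Thor promoter, chr2L:3478184-3478483, plus strand: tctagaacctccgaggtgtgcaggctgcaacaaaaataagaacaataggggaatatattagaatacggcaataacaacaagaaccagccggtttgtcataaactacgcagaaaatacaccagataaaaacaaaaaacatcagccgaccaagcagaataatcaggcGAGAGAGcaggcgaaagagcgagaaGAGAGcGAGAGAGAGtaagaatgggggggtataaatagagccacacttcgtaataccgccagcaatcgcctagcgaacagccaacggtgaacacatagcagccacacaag
ImpL2 promoter, chr3L:4236098-4236397, minus strand: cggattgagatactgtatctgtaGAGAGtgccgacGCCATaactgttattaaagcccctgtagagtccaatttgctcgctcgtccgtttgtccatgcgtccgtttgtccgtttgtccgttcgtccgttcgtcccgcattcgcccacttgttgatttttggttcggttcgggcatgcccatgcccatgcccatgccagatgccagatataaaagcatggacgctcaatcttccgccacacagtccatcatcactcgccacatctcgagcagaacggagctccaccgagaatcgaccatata

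The Thor stretch held GAGAG 6 times, overlapping matches counted, all on the strand printed. That many or more were found in 2.03% of the 13945 promoters of the same length. The foxo stretch held 2 matches, 1 of them on the other strand (CTCTC), and the ImpL2 stretch 1. At least 1 GAGAG was present in 5 of the 10 genes' promoters, against 29.7% of all promoters. GCCAT was present in 3 of the 10, at InR, chico and ImpL2, against 41.2% of all promoters. GTAAACA, the core bound by forkhead factors such as foxo, was present in 1 of the 10, at Pi3K92E, against 9.19% of all. These are matches of letters and were not tested as sites.

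The foxo gene, for the transcription factor that insulin signalling restrains, lies on the plus strand at chr3R:14056945-14087978 of the dm6 build. The H3K27me3 covered share was 100% in both libraries of young controls. It was 100% and 94.8% in young mutants. At 40 days it was 97.5% and 95.8% in controls and 98.1% and 98.8% in mutants. The share was thus above 94% in every library, both annotated starts of foxo were covered in all 8, and the ages and genotypes overlapped when each was pooled.

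The peak over foxo was part of a longer domain. Its left end lay in the same 234 bases in all 8 lists, between 20268 and 20501 bp before the start of foxo. No annotated gene overlaps these bases. The nearest protein-coding gene before them is CG9922, which is read on the minus strand from 14036398, so the left end of the domain fell from 46 bp upstream of the start of CG9922. The stretch is printed from the plus strand because it is the most constant feature of the domain, with the first base of each of the 8 peaks in capitals.
foxo domain left end, chr3R:14036444-14036677, plus strand: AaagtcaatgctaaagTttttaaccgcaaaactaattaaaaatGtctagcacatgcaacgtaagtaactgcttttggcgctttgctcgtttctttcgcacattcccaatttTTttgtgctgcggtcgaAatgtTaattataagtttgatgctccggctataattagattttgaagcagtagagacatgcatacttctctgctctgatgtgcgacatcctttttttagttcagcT
None of the 3 motifs occurred in it on either strand.

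The right side of the domain differed between lists. In young controls the peak ran 10030 and 15127 bp past the end of foxo. In young mutants it ended 406 and 378 bp past the end of the gene. In old controls it ended inside the gene, at -816 and -1361 bp from its end, and in old mutants at -618 and -391 bp. All 4 lists of old flies therefore ended inside foxo and all 4 of young flies beyond it. In the 6 lists other than those of young controls, the next peak began after a gap of 1645 to 2606 bp. That second peak lay over Npc2b, CCHa1, CG9920 and PK1-R, and the last base of the domain was at 14102823 to 14104233 in all 8 lists. The peak was split within foxo in 1 list, replicate 2 of the young mutants, into stretches of 28157 and 21843 bp. These ends were noticed in the data and were not tested.

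**Figure D2:**
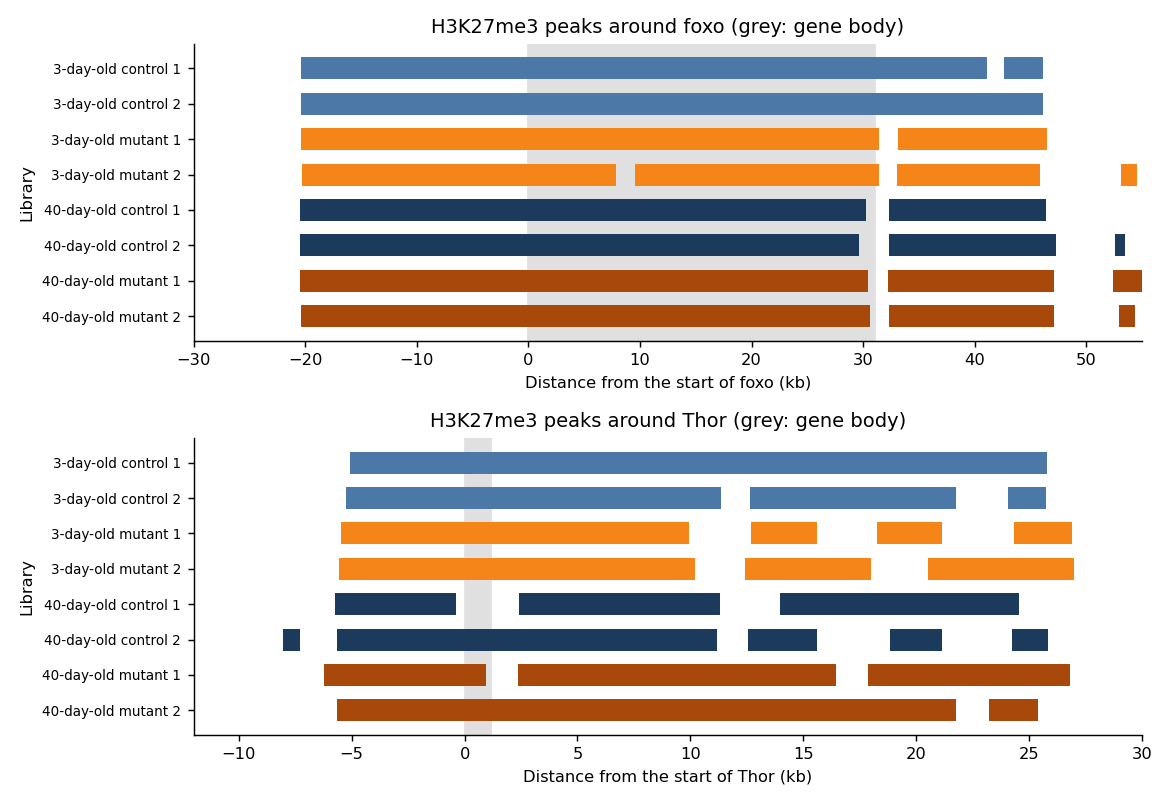
H3K27me3 peaks of each of the 8 libraries (rows) by distance in kb from the start of foxo (top) or Thor (bottom), with the gene body in grey and bars for peaks. The domain of foxo begins 20268 to 20501 bp before the gene in every row, and a gap lies near the end of foxo in 6 rows, while 2 rows of old flies have a gap at or next to Thor.

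The height of the peak at foxo is the fold over input that the authors' peak caller gave, as a mean over the covered bases of the window. In young flies it was 2.20 and 2.52 in controls and 2.52 and 2.02 in mutants. In old flies it was 1.66 and 1.84 in controls and 1.82 and 2.06 in mutants. The lowest value of the young flies and the highest of the old flies, both in mutants, crossed, so the ages overlapped. The median over genes covered for at least 50% of their window moved with it, from 1.55 to 1.71 in the 4 young libraries and from 1.44 to 1.57 in the 4 old ones. The foxo window stood above 72.4% to 81.7% of these genes, depending on the library. The number of such genes was 1931 to 2451 in young and 3102 to 3455 in old libraries. The -log10 q of the strongest peak on foxo was between 2.55 and 12.6, so every library had a peak there with a q-value under 0.05.

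Thor lies on the plus strand at chr2L:3478434-3479612 and is the shortest of the 10 genes, at 1179 bp. Its H3K27me3 covered share was 100% in all 4 libraries of young flies. In old controls it was 28.3% and 100%, and in old mutants 90.5% and 100%. Replicate 1 of the old controls stood apart, since its peak stopped at -1562 bp from the end of Thor and left the gene uncovered. The peak of replicate 1 of the old mutants stopped at -208 bp from that end, and the next peak followed after 1385 bp, compared with 2777 bp in the control library.

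The domain over Thor began 5069 to 6209 bp upstream of the gene in all 8 lists, a range of 1140 bp that falls in or before the first part of Pgant4. Where the peak covered Thor whole, it ran 8766 to 24627 bp past its end, over CG15414 and in 2 lists into tim. Its fold over input was lower than that at foxo in every library, from 1.43 to 1.81. In these libraries 37.0% to 73.5% of genes covered for at least 50% had a lower fold than Thor, so its height was near the middle of marked genes. The 2 lists with a gap at Thor were also the ones in which its peak missed a q-value of 0.05, with a -log10 q of 1.14 and 1.10, and in the other 6 lists it was 1.84 to 3.85.

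**Figure D3:**
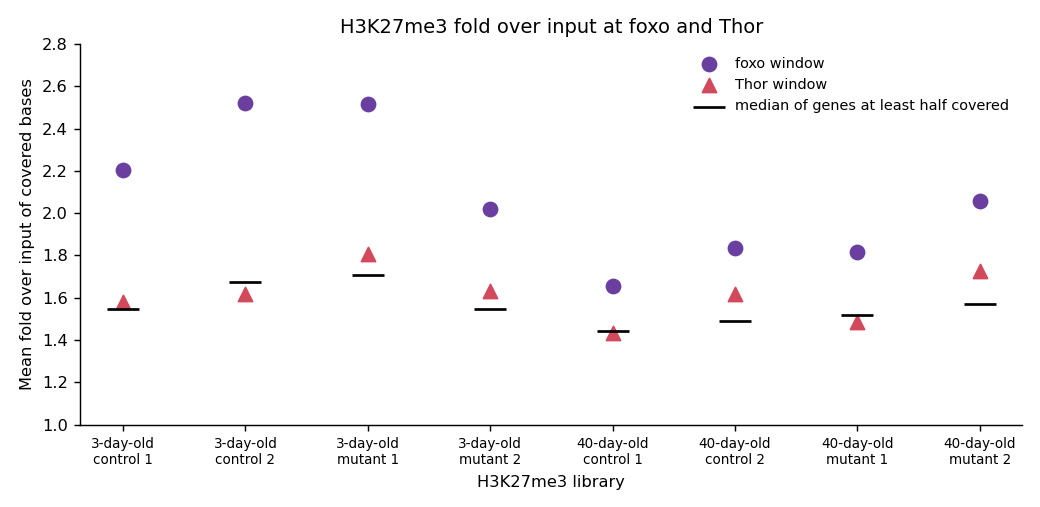
Mean fold of H3K27me3 over input across the covered bases of the foxo window (circles) and the Thor window (triangles) in each of the 8 libraries (x axis), with the median of all genes covered for at least 50% (bars). Foxo lies between 1.66 and 2.52 and above the median in every library, and Thor lies between 1.43 and 1.81, near it.

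ImpL2, the secreted antagonist, lies on the minus strand at chr3L:4224006-4236147, and CG46460 lies inside it. Its H3K27me3 covered share was 35.8% and 0% in young controls and 2.64% and 1.81% in young mutants. It was 0% in all 4 libraries of old flies. The 3 lists with a peak shared a small one of 1143 to 2208 bp just upstream of the gene, with its near end at -763 to -30 bp from the start. Replicate 1 of the young controls had a second peak of 3731 bp in the gene body, with a -log10 q of 0.586. The ages gave a mean of 10.1% ± 17.2 at 3 days and 0% at 40 days, which 1 library decides, and the exact permutation test did not pass (p = 0.143, adjusted p = 0.930, n = 4 against 4).

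InR, the receptor, lies on the minus strand at chr3R:21570248-21619321 and spans 49074 bp. H3K27me3 touched only its 3′ end. The share was 0% and 0.749% in young controls, 0% in both young mutant libraries, 4.20% and 0.491% in old controls, and 3.11% and 6.36% in old mutants. In 4 lists this was the edge of a domain of 41798 to 48094 bp that lies over the neighbouring homeobox gene slou, with folds of 2.28 to 5.25. In replicate 1 of the old mutants it was a separate peak of 1555 bp with a -log10 q of 0.912. The domain over slou was itself present in every list. It ended short of InR, at 21570012 in replicate 1 of the young controls and at 21570035 and 21569917 in the young mutants. In replicate 1 of the old mutants it ended at 21570220, also short of InR. No start of InR was covered in any H3K27me3 library. The pooled ages had 0.187% ± 0.374 at 3 days and 3.54% ± 2.44 at 40 days. The ages overlapped, and the change did not pass the exact permutation test over libraries (p = 0.0571, adjusted p = 0.623, n = 4 against 4).

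The H3R17me2 peaks on the 10 genes were of another kind. There were 174 of them over the 8 libraries, with a median length of 1909 bp and folds of 1.21 to 1.78. None had a q-value under 0.05, and the highest -log10 q was 0.282, at foxo. The libraries as a whole had 10627 to 17105 H3R17me2 peaks, of which 3 to 130 had a q-value under 0.05. For H3K27me3 they had 3575 to 6295 peaks, of which 623 to 1967 passed it. So a covered share for H3R17me2 rests on peaks that the caller listed by their p-value and that do not hold after adjustment.

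The windows of 8 of the 10 genes, all but foxo and Thor, overlapped another protein-coding gene, so a peak there may lie on either. H3R17me2 shares also followed the library. Replicate 2 covered more of the 10 genes than replicate 1 in each of the 4 conditions, by 5.99 to 24.0 percentage points, and more of all genes by 9.21 to 15.8 points. The library means over the 10 genes ran from 12.7% in replicate 1 of the old controls to 50.4% in replicate 2 of the young mutants. Those 2 libraries were also the lowest and highest over all genes, at 15.8% and 38.1%. The part of library depth in this was not tested, since the lists carry no counts. Values over all genes here and below include the 2196 genes on X, where the mean H3R17me2 share was 0.352%. None of the 10 genes lies on X. Over genes outside X the mean H3R17me2 share was 33.0%, against 31.0% over the 10.

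Among the components at the membrane, InR had H3R17me2 over 28.3% and 30.0% of its window in young controls, 18.7% and 55.8% in young mutants, 6.02% and 10.1% in old controls, and 13.9% and 30.5% in old mutants. The old controls were the lowest of the 4 conditions, below both libraries of each other condition. They were also lowest in the mean over all genes, at 21.4%, against 28.3% to 31.5% in the other conditions. At chico (chr2L:10242512-10247078, minus strand), the insulin receptor substrate, the shares in the same order were 0% and 17.9%, 26.3% and 44.5%, 0% and 17.7%, and 45.8% and 0%. At Lnk (chr3R:25888542-25893270, plus strand), an adaptor of the receptor, they were 38.8% and 58.8%, 0% and 56.0%, 0% and 0%, and 0% and 57.0%. Within both mutant groups the Lnk libraries differed by the whole size of the value, so the mutant levels of Lnk are not set by these data.

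Pi3K92E (chr3R:20628972-20634732, minus strand), the catalytic subunit of the lipid kinase, had shares of 18.8% and 36.6% in young controls, 15.1% and 52.7% in young mutants, 12.2% and 32.9% in old controls, and 48.0% and 61.4% in old mutants. At Akt (chr3R:16099228-16105670, plus strand) they were 0% and 0%, 14.1% and 49.3%, 32.9% and 0%, and 0% and 22.9%. Akt thus had no peak in 4 of 8 libraries, and in each condition other than the young mutants at least 1 library was at 0%.

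At foxo, H3R17me2 covered 32.2% and 36.6% in young controls, 46.9% and 40.8% in young mutants, 34.1% and 37.9% in old controls, and 7.88% and 41.6% in old mutants. Its SD over the 8 libraries, 11.8 points, was the smallest of the 10 genes. Since H3K27me3 covered 94.8% or more of the same window, most of these H3R17me2 peaks lay in bases that the H3K27me3 lists cover too. At Thor, which foxo activates, the H3R17me2 shares were 44.4% and 0%, 66.7% and 0%, 0% and 36.9%, and 27.8% and 14.5%. The 2 replicates of Thor disagreed in 3 of 4 conditions about whether there was a peak.

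ImpL2 had the highest mean H3R17me2 share. Its values were 66.7% and 45.9% in young controls, 50.9% and 59.1% in young mutants, 11.8% and 28.9% in old controls, and 66.8% and 39.2% in old mutants. As at InR, both libraries of old controls were below all others, and the old controls were also the lowest condition over all genes. ImpL2 also had a peak in the 1000 bp upstream of its start in 7 of 8 libraries, more than any other of the 10, and on average 57.3% of that stretch was covered.

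In the TOR branch, Tsc1 (chr3R:24130307-24134654, plus strand), a subunit of the complex that restrains TOR, had the widest spread, 32.4 points (SD). Its H3R17me2 shares were 43.0% and 92.0% in young controls, 0% and 76.8% in young mutants, 7.05% and 40.7% in old controls, and 18.7% and 51.8% in old mutants. At S6k (chr3L:5797549-5810931, minus strand), the ribosomal protein S6 kinase, the shares were 31.6% and 45.9%, 25.3% and 69.2%, 23.3% and 48.3%, and 58.3% and 57.9%. S6k had no library at 0%. Its introns were covered for 58.2% on average and its exons for 27.2%, while at Pi3K92E exons had the higher share, 42.2% against 32.0%.

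**Figure D4:**
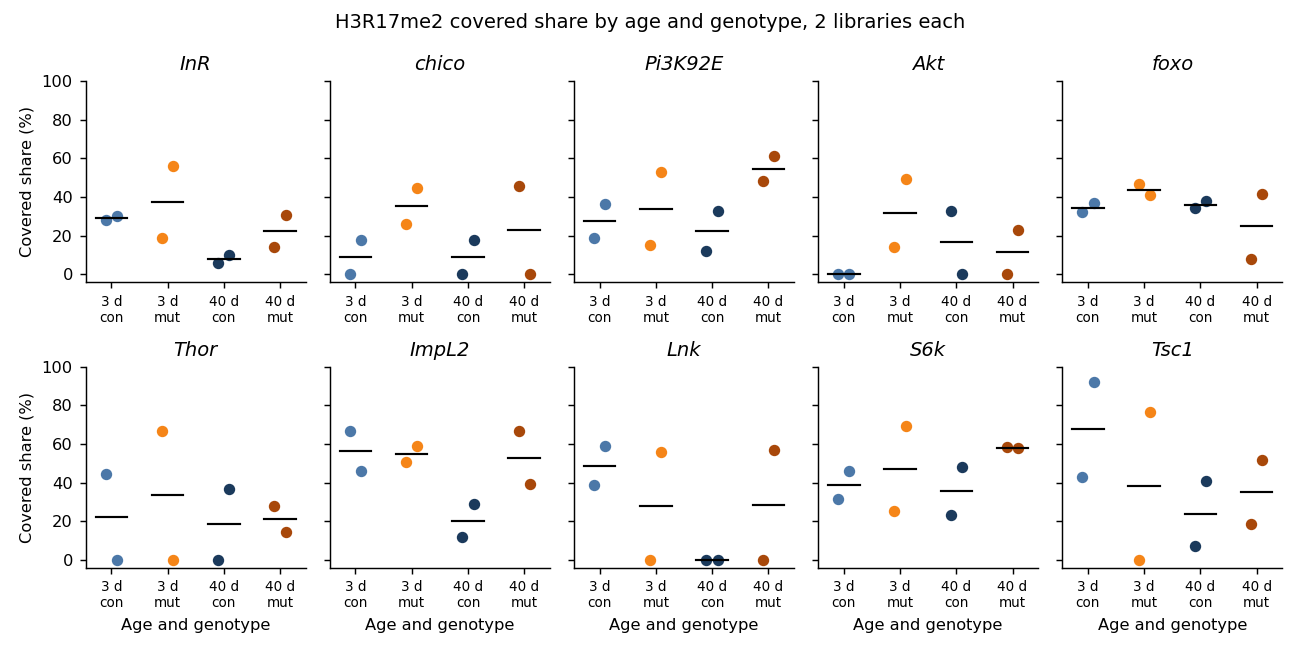
H3R17me2 covered share (percent, y axis) of each of the 10 genes by age and genotype (x axis: 3 d and 40 d are days, con is w1118 control, mut is LKRSDH MB01942), with 1 point per library, 2 libraries per condition and a line at their mean. The old controls have the lowest mean at 8 genes, all but Akt and foxo, and replicates differ by up to 76.8 percentage points at Tsc1 in young mutants. Over all genes the old controls are also lowest, at 21.4%, against 28.3%, 30.2% and 31.5% in the other conditions.

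In order of the mean H3R17me2 share, the genes were ImpL2 (46.2% ± 19.1), S6k (45.0% ± 16.8), Tsc1 (41.3% ± 32.4), foxo (34.8% ± 11.8), Pi3K92E (34.7% ± 18.4), Lnk (26.3% ± 28.8), InR (24.2% ± 15.8), Thor (23.8% ± 24.6), chico (19.0% ± 18.9) and Akt (14.9% ± 18.8), each as SD over 8 libraries. Every gene differed from its neighbours in this order by less than its SD. H3R17me2 lay in gene bodies more than at starts. Over the 10 genes and 8 libraries, the first base of the gene was covered in 9 of 80 cases (11.2%), and gene bodies were covered for 33.7% on average. The same values over all genes were 20.8% for the start and 29.6% for the body. No H3R17me2 library covered the first base of InR, chico, Pi3K92E, Akt or Lnk.

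The marks were compared per gene by an exact permutation test over libraries, 8 against 8, two-sided, with Benjamini-Hochberg adjustment over all 13945 genes. By this exact test, H3R17me2 minus H3K27me3 was -63.3 points at foxo (adjusted p = 0.00148) and -66.1 points at Thor (adjusted p = 0.00512), so H3K27me3 was the higher mark at both. Over all genes 10.2% were called in this direction. By the same exact test, H3R17me2 was higher at S6k (45.0 points, adjusted p = 0.00148), Pi3K92E (34.7 points, adjusted p = 0.00148), InR (22.3 points, adjusted p = 0.00274), ImpL2 (41.1 points, adjusted p = 0.00396) and Tsc1 (41.3 points, adjusted p = 0.00640). These are 5 of 10 genes, against 25.6% of all genes. None of the 10 lies on X, while all 3564 genes called for H3R17me2 were among the 11749 outside X. The share of genes outside X is therefore above 25.6%. At chico (19.0 points, adjusted p = 0.0565), Lnk (26.3 points, adjusted p = 0.138) and Akt (14.9 points, adjusted p = 0.138) the difference did not pass the exact test. All 3 had 0% H3K27me3 in every library and no H3R17me2 peak in 3 or 4 libraries. At the 6 genes without any H3K27me3 peak, p depends only on how many H3R17me2 libraries had a peak, not on the points. That number was 8 at Pi3K92E and S6k, 7 at Tsc1, 5 at chico and 4 at Akt and Lnk. The 2 marks come from separate antibodies and peak lists, so the difference is one of listed peaks and not of amounts of modified histone.

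The 7 calls held when any 1 of the 16 libraries was left out, an alternative chosen after seeing the data. The call at Thor ended when the window was the gene body alone (-53.0 points, adjusted p = 0.0607, exact permutation test). It also ended with only peaks of q under 0.05 (-75.0 points, adjusted p = 0.0690), with only peaks of p under 0.001 (-50.0 points, adjusted p = 0.837) and when a gene counted as marked at 50% or more (-75.0 points, adjusted p = 0.256), by the same exact test. The call at Pi3K92E ended with equal numbers of top peaks (23.9 points, adjusted p = 0.0750, exact permutation test). All 5 calls for H3R17me2 ended when only peaks with a q-value under 0.05 were kept, since no H3R17me2 peak on these genes passed it.

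The mean H3K27me3 share over the 10 genes was 21.8% ± 2.48 (SD, n = 2) in young controls, 20.0% ± 0.429 in young mutants, 16.3% ± 4.69 in old controls and 19.8% ± 0.955 in old mutants. Over all genes it was 14.6% to 18.8% in the 4 young libraries and 22.6% to 24.8% in the 4 old ones. With genotypes pooled, the mean difference of old minus young flies was -2.82 points over the 10 genes and 7.14 points over all genes. In controls alone the difference over the 10 genes was -5.52 points and in mutants -0.122 points. The value in controls rests on replicate 1, in which Thor was at 28.3% at 40 days and ImpL2 at 35.8% at 3 days. Without replicate 1 the difference was -0.451 points in controls and 0.858 points in mutants, so no direction over the 10 genes held in both. Of the 10, 1 gene had a higher mean at 40 days (InR), 3 a lower one (foxo, Thor and ImpL2) and 6 stayed at 0%. This difference between the 10 genes and all genes was not tested.

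In the pooled comparisons of age and of genotype, with 4 against 4 libraries, none of the 10 genes passed the exact permutation test in either mark, before or after adjustment, and no group of 4 stood clear of the other 4. Over all genes, the tests called 0 after adjustment. For H3K27me3 and age, 939 genes had an unadjusted p under 0.05. For H3K27me3 and genotype there were 27, for H3R17me2 and age 278, and for H3R17me2 and genotype 249. In the H3K27me3 libraries, 6.58% of all genes had all 4 old libraries above all 4 young ones, and 0.158% the reverse. For genotype these shares were 0.0932% and 0.1%. In the H3R17me2 libraries they were 0.538% and 1.46% for age, and 1.51% and 0.272% for genotype. The smallest p that 4 against 4 libraries can give is 0.0286.

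For H3R17me2 with genotypes pooled, the means at 40 days were lower at 8 of the 10 genes and higher at Pi3K92E and S6k, with a mean difference of -9.78 points, against -2.76 points over all genes. With ages pooled, the means in mutants were higher at 8 of the 10, by 9.60 points on average, and lower at foxo and Tsc1, against 5.99 points over all genes. The share of all genes going each way is not given here, so the counts of 8 are not read as particular to these genes. None of these differences passed, and the smallest unadjusted p for age was 0.114 (InR) and for genotype 0.171 (chico, Pi3K92E and S6k), by exact permutation test.

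The 4 single contrasts have 2 libraries against 2, and an exact permutation test cannot give a p below 1/3 there, so they give values and no call. In controls, H3R17me2 was lower in both old libraries than in both young ones at 4 of the 10 genes. These were Lnk (48.8% ± 14.2 at 3 days and 0% at 40 days, a difference of -48.8 points), Tsc1 (67.5% ± 34.7 and 23.9% ± 23.8, -43.7 points), ImpL2 (56.3% ± 14.7 and 20.3% ± 12.0, -36.0 points) and InR (29.1% ± 1.17 and 8.07% ± 2.90, -21.1 points). The same order of libraries held for 17.2% of all genes, and the reverse for 6.12% of all genes and for 0 of the 10. With equal numbers of top peaks the difference was -19.4 points at Lnk and -13.5 points at InR, and without replicate 1 it was -17.1 points at ImpL2. The mean difference was -14.4 points over the 10 genes and -6.85 points over all genes. In mutants no gene of the 10 had such an order in either direction, against 13% of all genes higher and 9.53% lower with age. The mean difference in mutants was -5.21 points over the 10 genes and 1.32 points over all genes. Whether the age differences of the 2 genotypes differ was not tested.

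At 40 days, H3R17me2 was higher in both mutant libraries than in both control libraries at 4 of the 10 genes, which is the order of 20.4% of all genes, while 4.47% had the reverse. The genes were ImpL2 (53.0% ± 19.5 in mutants, a difference of 32.6 points), Pi3K92E (54.7% ± 9.43, 32.2 points), S6k (58.1% ± 0.305, 22.3 points) and InR (22.2% ± 11.8, 14.1 points). At S6k the direction turned with equal numbers of top peaks (-6.86 points), and the difference was 12.2 points relative to the library mean and 9.56 points without replicate 1. At InR it was 7.38 points with equal numbers of top peaks, 4.04 points relative to the library mean and 7.85 points without replicate 2, and at ImpL2 10.3 points without replicate 1. This contrast shares the old control libraries with the age contrast in controls, and 1 of them, replicate 1, had the lowest H3R17me2 coverage of all genes. The mean difference between genotypes at 40 days was 14.2 points over the 10 genes and 10.1 points over all genes. At 3 days the mutants were clear of the controls at Akt (31.7% ± 24.9 against 0%), chico (35.4% ± 12.9 against 8.95% ± 12.7) and foxo (43.9% ± 4.36 against 34.4% ± 3.17). The difference was 14.1 points at Akt without replicate 2, 13.3 points at chico with equal numbers of top peaks, against 26.4 points with all peaks, and 4.12 points at foxo without replicate 1. The mutants were thus clear at 3 of the 10, against 11.5% of all genes, and 0 of the 10 had the reverse, against 10% of all genes.

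In H3K27me3, foxo was lower in both old controls than in both young controls, with a difference of -3.40 points, an order found in 1.84% of all genes, while 14.2% were higher. In mutants InR was higher with age by 4.73 points, against 14.7% of all genes, and ImpL2 lower (-2.23 points), against 0.825% of all genes. Relative to the library mean, InR was instead lower (-2.81 points) and foxo in controls differed by -10.1 points, since the library means over all genes were higher in old flies. The ImpL2 difference lay upstream of the gene, and was 0 points in the gene body alone. Between genotypes at 40 days foxo was higher in mutants by 1.82 points, against 4.81% of all genes higher and 3.84% lower, and by 0.618 points without replicate 2. At 3 days none of the 10 separated the genotypes, against 2.44% higher and 3.89% lower over all genes. No gene of the 10 had opposite, non-overlapping changes with age in the 2 genotypes or between genotypes at the 2 ages. Over all genes these shares were also small, at 0.402% and 0.889% for H3K27me3 and 3.30% and 3.07% for H3R17me2, so a count of 0 of the 10 says nothing particular about them.

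Of 39 other genes of the insulin and TOR branches that were listed, 38 were matched to the annotation. H3K27me3 touched 5 of these 38, against 4 of the 10, while 55.2% of all genes had no H3K27me3 peak in any library. Among the 38, H3K27me3 was high only at Sdr, with 73.7% ± 29.0 (SD, n = 8) and values from 17.7% to 100%. Sdr is a secreted decoy of the receptor that also binds the peptides. Sesn, a sestrin that restrains TOR, had 20.6% ± 11.8 with a peak in all 8 libraries, and melt 7.58% ± 10.9 with peaks in 3. For H3R17me2 the highest means were at Sdr (55.8% ± 28.1), Iml1 (53.5% ± 23.7), a GATOR1 subunit, and gig (49.7% ± 23.1), the partner of Tsc1. In the comparison of marks, 18 of the 38 had more H3R17me2 and 0 more H3K27me3, and 20 did not pass. Over all genes 25.6% and 10.2% were called in these directions. Of the 38 genes 8 lie on X, where no gene was called for H3R17me2, and 30 lie elsewhere. The largest called differences were at Iml1, gig and mTor (44.5 points), the TOR kinase itself, all with an adjusted p of 0.00148 by the exact permutation test. All 3 had 0% H3K27me3 and an H3R17me2 peak in every library, so this p does not measure the size of the difference. The median difference over the 38 was 20.5 points, against 24.3 points over the 10 and 11.8 points over all genes.

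As a check of the lists, the Polycomb-repressed genes Ubx, abd-A, Abd-B and Antp all had a mean H3K27me3 share above 99%, and 6 broadly active genes, among them RpL32 and Act5C, had 0% in every library. The same 4 Polycomb genes had H3R17me2 means of 47.1% to 52.6%, so H3R17me2 peaks over a gene were not limited to genes free of H3K27me3. The 6 broadly active genes, of which Act5C lies on X, had lower H3R17me2 means, from 7.48% to 29.4%. The median of their means was 15.4%, against 28.1% over all genes. Over all genes, 55.2% had no H3K27me3 peak in any library, and 8.56% had a mean share of 90% or more, as foxo had.

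The genes most like foxo over the 16 libraries, by the mean absolute difference in covered share and outside its window, were tsh on 2L (5.26 points), CG7800 on 3R (5.30 points) and dsx on 3R (5.33 points). Their H3K27me3 means were 100%, 100% and 96.9%, and their H3R17me2 means 40.5%, 39.6% and 34.7%. The genes most like ImpL2 were Helz on 3L (6.49 points), CG33144 on 2R (7.09 points) and CG2926 on 3R (7.15 points), with H3R17me2 means of 41.3%, 41.8% and 54.6%.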

How the data were processed

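Chromatin immunoprecipitation was followed by sequencing in 16 libraries (8 per mark, 2 per condition) and 8 inputs, which were not analysed here on their own. According to the study's methods and the submitters' processing notes, the authors trimmed reads with Trim Galore 0.6.0, aligned them to dm6 with Bowtie2 2.5.1, removed duplicates with Picard, handled files with SAMtools 1.19 and called broad peaks against input with MACS2 2.2.7.1. Which input went with which library is not given in the sources used here. The deposited lists give each peak's coordinates, its fold over input as a ratio, and its -log10 p and -log10 q as the authors' caller wrote them, each a mean over the peak. The smallest listed peak was 500 bp. A display score that the authors deposited was not used. The lists hold no counts, so the depth per library is unknown and no interval was computed. The replicates are separate biological samples per the study.

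Overlapping peaks of a list were merged and intersected with Ensembl release 115 gene models of the same build, with pandas 2.3.3, NumPy 2.4.6 and, for the plots, matplotlib 3.10.9 (Python 3.11.15). Groups follow the titles and descriptions of the samples. Tests were exact two-sided permutation tests over libraries per gene, adjusted by the Benjamini-Hochberg method over 13945 genes, with a threshold of 0.05, and were tested on simulated data. Promoters were read from the RefSeq genome at the Ensembl gene starts. One listed pathway gene, Lobe, had no unique match, and Susi, TBC1D7, Tor and RpII140 were matched through their synonyms B4, TBC1d7, mTor and Polr2B. The rule for named genes took all 10 members, of the other pathway genes the 3 highest per mark and up to 3 called per direction, and the 3 genes most like foxo and ImpL2. The members, gene lists and motifs were chosen with earlier results of these data known. Alternatives were other windows (gene body, 3000 bp upstream), stricter peaks (q under 0.05, p under 0.001, equal numbers of top peaks), coverage relative to the library mean, a call of marked at 50% or more, leaving out replicates and blocking by replicate number.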

Additional observations from a re-analysis of the deposited data

Results flagged for a closer look

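Of 68 groups of 4 or 8 libraries in which a gene's covered share varied, 13 had 1 library far from the others by Dixon's criterion. Its chance rate of about 1 group in 20 does not apply here, since the groups overlap and many hold several values of 0% or 100%. Where all other libraries of a group share 1 value, the criterion picks out the remaining library however small its distance. The 13 are therefore not read as an excess over chance. For H3K27me3, Thor at 28.3% in replicate 1 of the old controls lay far below the other 7 libraries, below the other old libraries and below the other controls. Thor at 90.5% in replicate 1 of the old mutants lay below the other mutants, which were all at 100%. ImpL2 at 35.8% in replicate 1 of the young controls lay above the other 7 libraries, the other young libraries and the other controls. Foxo at 94.8% in replicate 2 of the young mutants lay below the other young libraries, and InR at 0.749% in replicate 2 of the young controls above them. For H3R17me2, foxo at 7.88% in replicate 1 of the old mutants lay below the other 7 libraries and below the other mutants. Lnk at 57.0% in replicate 2 of the old mutants was the only old library with a peak there, and Akt at 32.9% in replicate 1 of the old controls the only control library with one. The cause of these values was not tested.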

How the results depend on the processing

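The direction of the 7 called differences between marks held under other windows, equal numbers of top peaks and subtraction of the library mean. Under stricter peaks foxo and Thor kept theirs, Pi3K92E, S6k and Tsc1 went to 0 points, and InR turned. ImpL2 turned with q under 0.05 and went to 0 points with p under 0.001. With peaks of q under 0.05, no H3R17me2 peak was left on the 10 genes, so the mean H3R17me2 share was 0%, 1 gene was called for H3K27me3 and 0 for H3R17me2, and the differences at InR and ImpL2 turned to -1.47 and -0.330 points. The mean differences of H3R17me2 for age in controls and for genotype at 40 days were then 0, and those of H3K27me3 for age in mutants and genotype at 40 days -4.71 and 0.266 points. With peaks of p under 0.001 the means were 15.0% for H3K27me3 and 0% for H3R17me2, 1 and 0 genes were called, InR was at -1.47 points, the H3R17me2 differences were 0, and H3K27me3 differed by -4.58 points for age in mutants and 4.70 for genotype at 3 days. The gene body alone left 1 call for H3K27me3. A gene counted as marked at 50% or more gave 1 call for H3K27me3 and 0 for H3R17me2, and H3R17me2 differences between genotypes of 25 points at 3 days and 30 points at 40 days. Relative to the library mean, the shares over the 10 genes were -0.940 points for H3K27me3 and 3.16 points for H3R17me2, and H3K27me3 differences with age were -12.3 points in controls and -7.67 in mutants. Under that subtraction 9 of the 10 genes, and 9870 of all genes, were called for age in H3K27me3. By its construction a gene at 0% in all libraries takes the negative of the library mean, which was higher in all 4 old libraries.

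With each of the 16 libraries left out in turn, 2 genes stayed called for H3K27me3 and 5 to 6 for H3R17me2, chico being the one gained in 3 cases. Without replicate 1 or replicate 2 altogether, the comparison of marks called 0 and 0 genes in either direction, over all genes as well, since 4 against 4 libraries allow too large a p. The H3K27me3 difference for age in controls ranged from -10.6 to -0.451 points, so replicate 1 decides most of it, and that in mutants from -1.10 to 0.858 points. Over all genes, deviations of same-numbered libraries correlated by -0.170 to 0.0839 between conditions of 1 mark and by -0.0207 to 0.0118 between the marks of 1 condition, so the numbers were not taken to pair the samples. These correlations leave out shifts of a whole library, and for H3R17me2 replicate 2 was above replicate 1 over all genes in all 4 conditions, by 9.21 to 15.8 points. With the replicate block, 0 and 0 of the 10 genes were called between marks (adjusted p of 0.0591 to 0.0627 at the 7 genes), and 0 for age or genotype. The crossed pairing for H3K27me3 and genotype at 3 days, added after seeing the data, gave 0 calls, as did the numbers as labelled. Permutation within the other factor gave 0 calls. For age and genotype neither setting could give a call. The smallest p was 0.125 with the replicate block (sign-flip test) and 0.0556 with permutation within the other factor. Depth could not be judged from lists of peaks.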

Other observations

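H3R17me2 peaks were almost absent from the X chromosome of these male flies, which describes listed peaks and not amounts of modified histone. The mean covered share over the 2196 protein-coding genes on X was 0.352% ± 0.293 (SD, n = 8 libraries). On 2L, 2R, 3L, 3R and chromosome 4 it was 31.4% to 33.5%. Of the X-linked genes, 82.9% had no H3R17me2 peak in any library. H3K27me3 was also lower there, at 4.72% ± 1.67, against 21.4% to 24.7% on the arms of chromosomes 2 and 3. None of the 10 genes lies on X. Of the 38 other pathway genes 8 do, with H3R17me2 means from 0% to 7.08%, and 5 of these had no H3R17me2 peak in any library. Among the 30 on the other chromosomes 1 had none, and the median of the means was 26.4%. All 3564 genes with more H3R17me2 than H3K27me3 lay among the 11749 genes outside X.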
